A study of Mus musculus with 6 samples.

Results

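Rab, Arf and Arl proteins are small GTPases that mark the membranes of the cell and recruit the machinery that forms, moves, tethers and fuses transport vesicles. Sorting nexins (Snx) bind phosphoinositide lipids on endosomes and sort cargo there, and Vps proteins, named after yeast vacuolar protein sorting mutants, build the retromer, tethering and ESCRT complexes of the endosome and lysosome. In macrophages these proteins carry the lipopolysaccharide receptor Tlr4 to and from the surface, mature phagosomes and route cytokines for secretion. The genes described here are those whose single annotated symbol starts with Rab, Arf or Arl and a digit, or with Snx or Vps. There were 94 such genes among 10698 on the array, carried by 131 probes, and 80 of them had at least 1 probe with a ratio on all 6 arrays, among 8331 such genes in all. Not all are GTPases: by name 43 were Rab GTPases, 6 Arf GTPases and 3 Arl GTPases, 18 were sorting nexins and 18 were Vps genes. The remaining 6 carry a GTPase's name only, namely Rab5if and Rab11fip1 (partners of Rab proteins), Rab7-ps1 (a pseudogene), Rab10os (a transcript of the opposite strand), Arl2bp (a binding partner of Arl2) and Arl14ep.

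RNA came from RAW 264.7 cells, a transformed mouse macrophage line, either given lipopolysaccharide (LPS, 100 ng/ml) for 1 h, a component of the outer membrane of Gram-negative bacteria, together with LPS-binding protein (LBP, 100 pM), which hands LPS to its receptor complex, or left untreated for 1 h. Each of 6 dual-channel arrays set treated against untreated RNA. Treated RNA carried the dye Cy5 on 3 arrays, called forward here, and Cy3 on the other 3, called swapped, and the labels number each 3 as sets 1 to 3. Part of the labels write the line as RAW 264.4, and they do not say whether the sets were separate cultures, so p-values measure the spread between these samples only, which may be technical. Both arrays of a set were averaged, so each value below is a mean log2 ratio, treated over untreated, ± SD over 3 sets.

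The deposited values carry no intensities, so signal over background is unknown and levels of different genes cannot be compared. Precision can be judged from the spread of the arrays alone. The direction is likely but no source gives it: on every array the Cy5 RNA is labelled as test, so Cy5 was taken as the numerator, and every sign here would turn under Cy3. Under that reading Tnf was at 2.44 ± 0.19. An exact 0 was taken as no ratio, and zeros made up 8.99% to 23.9% of the values of an array, most on both arrays of set 2. Of the macrophage markers 12 of 13 on the array had a ratio on all 6 arrays, with 1 higher and 2 lower, against 6 of 8 lymphocyte markers, with 2 higher and 0 lower, and 1 of 7 fibroblast or epithelial markers. Ratios give no level, so these counts do not show which cell type the RNA came from, and their part in the results below was not tested.

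Promoters are shown for the members at the ends of the range, so that the regions in front of the genes that rose or fell can be read beside their values. Of the 80 tested genes 60 had an entry in the RefSeq promoter table of the mouse build GRCm38.p6, which gives 250 bases before and 50 after each annotated start. Snx16, the gene with the next largest rise after Rab20, was not among them. The promoter of Rab20 is at chr8:11478591-11478890 on the minus strand, that of Rab11b at chr17:33760437-33760736 on the minus strand, and the more upstream start of Rab3a, the gene of the largest fall, at chr8:70754453-70754752 on the plus strand. Capitals mark the hexamer CACGTG, an E-box.
Rab20: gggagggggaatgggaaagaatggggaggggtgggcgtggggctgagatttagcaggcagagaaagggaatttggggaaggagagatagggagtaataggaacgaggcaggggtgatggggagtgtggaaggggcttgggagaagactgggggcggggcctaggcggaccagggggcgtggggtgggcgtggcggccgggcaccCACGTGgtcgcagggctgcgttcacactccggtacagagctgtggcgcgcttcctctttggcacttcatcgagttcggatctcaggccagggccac
Rab11b: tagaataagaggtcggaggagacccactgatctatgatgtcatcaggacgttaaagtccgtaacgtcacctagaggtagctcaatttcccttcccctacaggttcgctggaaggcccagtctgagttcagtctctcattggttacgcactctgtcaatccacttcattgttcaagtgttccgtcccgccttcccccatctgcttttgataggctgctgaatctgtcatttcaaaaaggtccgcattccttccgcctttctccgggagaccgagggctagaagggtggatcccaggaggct
Rab3a: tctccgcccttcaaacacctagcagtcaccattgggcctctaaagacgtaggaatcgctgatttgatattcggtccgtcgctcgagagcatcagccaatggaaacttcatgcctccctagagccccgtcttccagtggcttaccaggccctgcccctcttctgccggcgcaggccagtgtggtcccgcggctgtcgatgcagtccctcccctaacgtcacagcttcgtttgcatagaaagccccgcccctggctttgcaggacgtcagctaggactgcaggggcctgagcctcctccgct

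Both strands of each promoter were searched for an NF-kappaB motif of 10 bases, the AP-1 motif TGANTCA, the cyclic AMP response element TGACGTCA, the CArG box of serum response factor, the E-box CACGTG and the GC box GGGCGG. The Rab20 promoter held the E-box 46 to 41 bases before the start and a GC box 100 to 95 bases before it, and these did not overlap. The Rab11b promoter held none of the 6 motifs, and the upstream Rab3a promoter held GC boxes only. Of the 7 promoters of the 5 genes that rose and had an entry, 0 held the NF-kappaB motif, and the AP-1 motif stood in 1, at a start of Snx10. Across the 71 promoters of tested members, 4.23% held the NF-kappaB motif and 18.3% the E-box, against 8.46% and 7.15% of the 32851 promoters in the table. The AP-1 motif stood in 4.23% of the members' promoters, the cyclic AMP response element in 2.82% and the CArG box in 1.41%, against 7.81%, 1.79% and 1.63% of all. The GC box stood in 71.8% of the members' promoters, against 35.7% of all, and base composition was not matched between these sets. A match is a description of these windows only.

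The design asks how transcripts differ after 1 h of LPS and LBP. Rab20, whose protein acts in the maturation of phagosomes and macropinosomes, was the only member with a mean above 0.5 in size, and it rose 1.58-fold. Snx16, Rab11b, Vps37a, Rab33b, Rab12 and Snx10 rose by 1.13-fold to 1.31-fold, while Rab3a, Rab19, Snx24 and Snx2 fell by 1.14-fold to 1.27-fold. In all, 7 of 80 tested members rose and 4 fell (limma, Benjamini-Hochberg adjusted p below 0.05 over 8331 genes). Over all genes tested, 6.96% rose and 6.21% fell, 13.2% in all, so the share of members that changed, 13.8%, is near the background and is not a result about the members as a group. The median ratio of the members was -0.02, against -0.01 over all genes tested, and the median size of the ratio was 0.07 for both. Of the members 33 had a mean above 0 and 47 a mean below 0, against 3851 and 4480 of all genes tested. All 6 arrays had 1 sign for 22.5% of the members, against 19.1% of all genes tested.

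**Figure D1:**
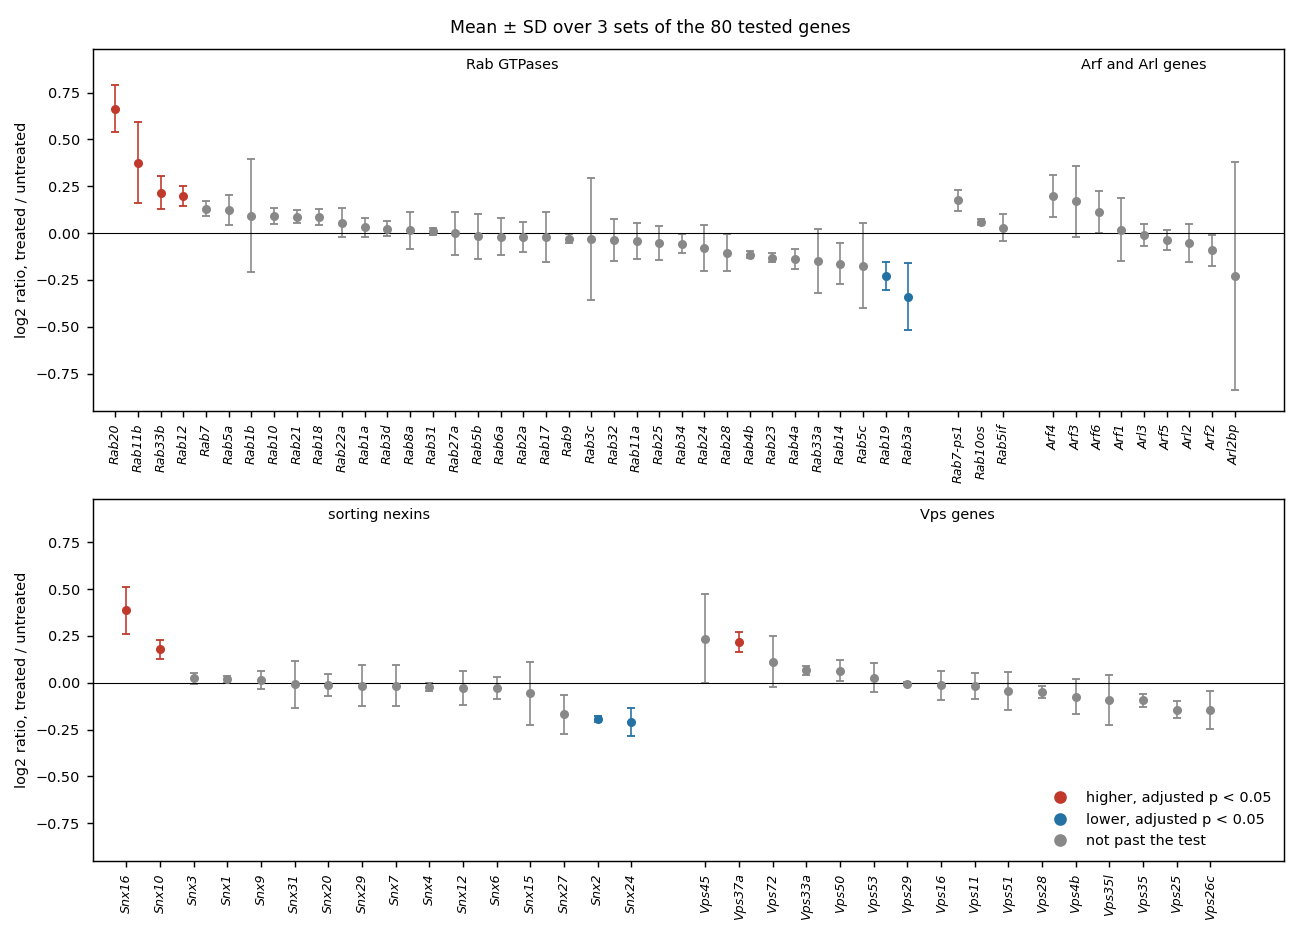
Mean log2 ratio of treated over untreated RNA (y axis) for each of the 80 tested genes, ordered within Rab GTPases, other Rab-named genes (the 3 unlabelled points), Arf and Arl genes, sorting nexins and Vps genes; points are means and bars SD over 3 sets. Rab20 at 0.66 stands above all others, and all other means lie between -0.34 and 0.39.

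Among the Rab GTPases, 4 of 36 tested genes rose and 2 fell. Rab20 gave log2 ratios of 0.62, 0.82 and 0.43 on the forward arrays and 0.72, 0.75 and 0.64 on the swapped arrays, for sets 1, 2 and 3. All 6 arrays were well above 0, and both orientations overlapped. The mean was 0.66 ± 0.13 (n = 3 sets, limma, adjusted p = 0.000996, 95% interval 0.53 to 0.80), which placed it at rank 125 of the 8331 genes ordered from the largest rise. Its 2 probes averaged 0.74 and 0.59, and each passed the test alone (adjusted p = 0.000836 and 0.00165). Rab20 kept its call under all 13 alternatives to the processing, at 0.60 to 0.73. It was the only member that also passed without set 1, and with zeros kept as ratios only Rab20 and Snx2 passed.

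Rab11b, a GTPase of the recycling endosome, gave 0.28, 0.45 and 0.66 on the forward arrays and 0.17, 0.11 and 0.58 on the swapped arrays. All arrays were above 0, and both arrays of set 3 were the highest of their orientation. Rab11b rose by 0.38 ± 0.22 (adjusted p = 0.033). Its close relative Rab11a, which in human macrophages helps to bring Tlr4 to phagosomes, averaged -0.04 ± 0.10 (adjusted p = 0.656, 95% interval -0.16 to 0.08), and the difference between these relatives was not tested. Rab11b did not pass on the swapped arrays alone (0.29) or without set 1 (0.45), and without set 3 it passed at 0.25.

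Rab33b, a Golgi GTPase whose protein binds the autophagy factor Atg16l1, gave 0.12, 0.17 and -0.03 on the forward arrays and 0.41, 0.37 and 0.26 on the swapped arrays. The arrays of one orientation lay below those of the other without overlap. Rab33b rose by 0.22 ± 0.09 (adjusted p = 0.0375), and on the forward arrays alone it was at 0.09 and did not pass. Rab12, which directs the transferrin receptor to degradation, gave 0.17, 0.18 and 0.26 on the forward arrays and 0.14, 0.18 and 0.26 on the swapped arrays. Averaged over its 2 probes, the arrays of both orientations nearly coincided for Rab12, at a mean of 0.20 ± 0.05 (adjusted p = 0.0331). The probes averaged 0.18 and 0.22, and their orientations differed in opposite ways. The first was at 0.07 to 0.15 on the forward arrays and 0.22 to 0.26 on the swapped arrays. The other was at 0.19 to 0.38 on the forward arrays and 0.06 to 0.26 on the swapped arrays. Rab33b did not pass without set 1 or set 2 (0.19 in each), and Rab12 did not with any set left out (0.22, 0.21 and 0.17 without sets 1, 2 and 3) or on either orientation alone.

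Rab3a, best known for the regulated release of neurotransmitter and hormone vesicles, gave -0.37, -0.45 and -0.34 on the forward arrays and -0.24, -0.61 and -0.02 on the swapped arrays. All arrays were below 0, the last only just. Rab3a fell by 0.34 ± 0.18 on the log2 scale (adjusted p = 0.0293). A further Rab3a probe had ratios on 5 arrays and averaged 0.07 there, and with incomplete probes included the gene was at -0.17 and did not pass (adjusted p = 0.119). Rab19 gave -0.20, -0.20 and -0.36 on the forward arrays and -0.15, -0.21 and -0.27 on the swapped arrays. It fell by 0.23 ± 0.07 (adjusted p = 0.0251), with probes at -0.27 (adjusted p = 0.0156) and -0.18 (adjusted p = 0.0591). Without set 1 neither Rab3a (-0.36) nor Rab19 (-0.26) passed, and Rab19 did not without set 3 (-0.19) or on either orientation alone. Rab3a did not pass on the swapped arrays alone (-0.29).

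**Figure D2:**
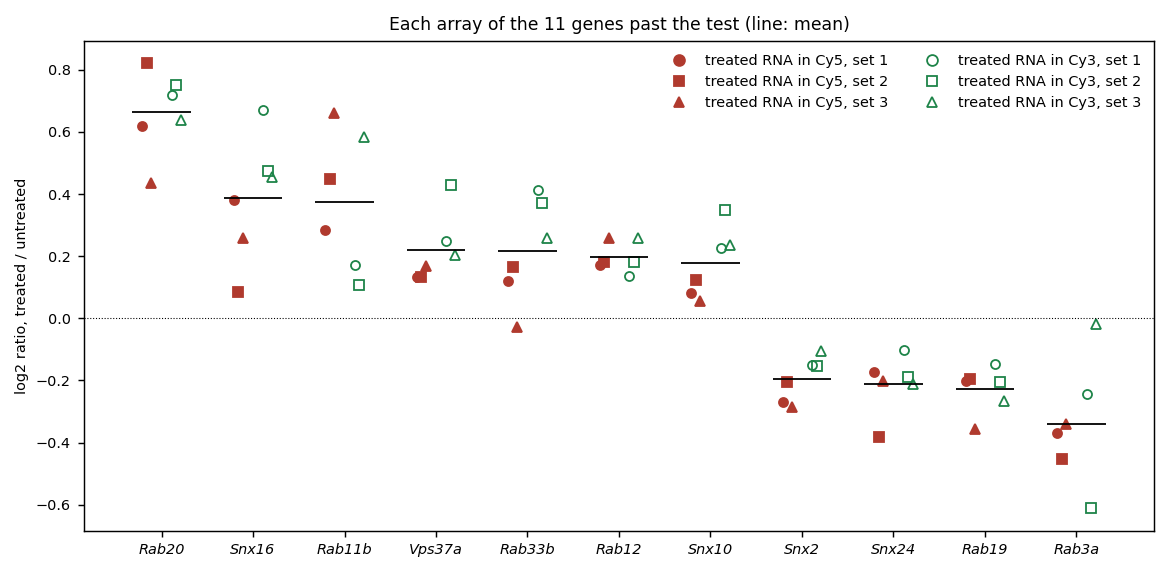
Log2 ratio of treated over untreated RNA (y axis) on each of the 6 arrays for the 11 genes past the test (x axis); filled symbols are forward arrays (treated RNA in Cy5), open symbols swapped arrays (treated RNA in Cy3), the shape gives the set and the line the mean. Rab20 lies between 0.43 and 0.82 on every array, whereas 1 array of Rab33b is at -0.03 and 1 of Rab3a is at -0.02.

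The Rab GTPases of early and late endosomes given here, Rab5a, Rab5b, Rab5c and Rab7, did not pass the test. Of the early endosome GTPases, Rab5a averaged 0.12 ± 0.08 (adjusted p = 0.158), Rab5b -0.02 ± 0.12 and Rab5c -0.18 ± 0.23 (adjusted p = 0.248). Rab7, which marks late endosomes and lysosomes, gave 0.21, 0.41 and 0.32 on the forward arrays and -0.01, -0.20 and 0.03 on the swapped arrays. Its 2 orientations did not overlap, and its mean of 0.13 ± 0.04 had an adjusted p of 0.102. The pseudogene Rab7-ps1 averaged 0.17 ± 0.06 (adjusted p = 0.0511). Its orientations ran the other way, with means of 0.07 on the forward arrays and 0.28 on the swapped arrays, against 0.31 and -0.06 for Rab7, and whether probes of these near-identical sequences bind each other's transcripts was not tested.

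Rab10, Rab8a, Rab14, Rab32 and Rab27a, GTPases with known parts in macrophage responses, did not pass the test either. Rab10, which in macrophages carries Tlr4 to the cell surface, averaged 0.09 ± 0.04 (adjusted p = 0.231, 95% interval -0.01 to 0.19), although all of its arrays were above 0, at 0.02 to 0.25. Rab8a, which acts in Toll-like receptor signalling at macropinosomes, averaged 0.02 ± 0.10, with all forward arrays below 0 and all swapped arrays above 0. Rab14, a GTPase of phagosomes, averaged -0.16 ± 0.11 (adjusted p = 0.112), with a 95% interval of -0.29 to -0.03 before any adjustment, which does not hold 0. It was at -0.20, -0.54 and -0.20 on the forward arrays but at 0.04, -0.04 and -0.03 on the swapped arrays. Rab32, of lysosome-related organelles, averaged -0.04 ± 0.11, and Rab27a, which docks secretory granules, averaged 0.00 ± 0.11. Apart from Rab10 and Rab14, the 95% intervals of these GTPases and of Rab11a all lay between -0.17 and 0.14.

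Rab3d, a granule GTPase and relative of Rab3a, had probes of opposite sign. On the first the forward arrays were at 0.35 to 0.53 and the swapped arrays at -0.18 to 0.21, and on the other all arrays were below 0. They averaged 0.20 ± 0.07 and -0.15 ± 0.04, and the first passed the test alone (adjusted p = 0.0417) while the other did not (adjusted p = 0.0751). The gene average was 0.02 ± 0.04. Tested probe by probe, 13 of 104 complete member probes passed, from 11 genes, against 1248 of all 9968 probes tested (12.5% of each). These were the genes called above without Snx10 and with Rab3d. The fast recycling GTPases Rab4a (-0.14 ± 0.05, adjusted p = 0.0935) and Rab4b (-0.11 ± 0.02, adjusted p = 0.123) and the cilium GTPase Rab23 (-0.13 ± 0.02, adjusted p = 0.0891) each had every array below 0 and did not pass. For Rab23 the forward array of set 2 was below 0 only just, at -0.001, and 1 of its probes was at 0.10 there. Among the tested Rab GTPases not named elsewhere in the text, Rab33a was lowest, at -0.15 ± 0.17 (adjusted p = 0.229). Rab21, of endosomes and integrin uptake, was highest among these, at 0.09 ± 0.04 (adjusted p = 0.232). Between Rab33a and Rab21 lay Rab1a, Rab2a, Rab6a, Rab17, Rab18, Rab22a, Rab25, Rab28, Rab31 and Rab34, none of which had 1 sign on all arrays. Rab10os, read from the strand opposite Rab10, was at 0.06 ± 0.02 (adjusted p = 0.404). Its arrays of set 2 were at 0.33 (forward) and -0.25 (swapped), a spread that its SD over set averages does not show.

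Among the Arf and Arl genes 0 of 9 tested genes passed (limma, with 1 at an unadjusted p under 0.05). Arf4, a Golgi GTPase, came closest, at 0.04, 0.12 and 0.19 on the forward arrays and 0.22, 0.15 and 0.47 on the swapped arrays. All arrays were above 0, and the mean was 0.20 ± 0.11 (adjusted p = 0.0675). Arf6, which acts at the plasma membrane on phosphoinositides and membrane uptake, averaged 0.11 ± 0.11 (adjusted p = 0.237, 95% interval -0.02 to 0.25). Arf1, which recruits the COPI coat at the Golgi, averaged 0.02 ± 0.17, and its orientations differed, with a mean of 0.26 on the forward arrays and -0.22 on the swapped arrays. Its probes averaged -0.11 and 0.15, and neither passed alone. Arf3 averaged 0.17 ± 0.19 (adjusted p = 0.207), Arf2 -0.09 ± 0.08 and Arf5 -0.04 ± 0.05. Arl2 and Arl3, which release lipid-modified cargo from its carriers, averaged -0.05 ± 0.10 and -0.01 ± 0.06.

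Arl2bp had the largest SD over sets of all members, 0.61, against a median SD of 0.07 over all genes tested, and rank 6 of 8331. It gave 0.13, -0.92 and 0.10 on the forward arrays and 0.25, -0.94 and 0.00 on the swapped arrays, for sets 1, 2 and 3. Set 2 alone was low, in both orientations and by almost the same amount, and no array was close to the mean of -0.23 (adjusted p = 0.526). Rab5c was likewise lowest in set 2, at -0.49 and -0.38, against -0.13 to 0.08 in the other sets. Rab1b, an endoplasmic reticulum to Golgi GTPase, was highest in set 3, at 0.61 and 0.26, against 0.20 and -0.49 in set 2, and Rab3c was also highest in set 3, at 0.28 and 0.40. An SD above 0.2 was found for 6 of 80 members (7.5%), against 6.91% of all genes tested. With orientation means removed, arrays of the same number correlated across the 80 members at r = 0.46, 0.24 and 0.52 for sets 1, 2 and 3, and at 0.34, -0.06 and 0.50 without Arl2bp. Over all 8331 genes the same r was -0.01, -0.28 and -0.09. These r values are over genes, which share arrays and are not independent.

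**Figure D3:**
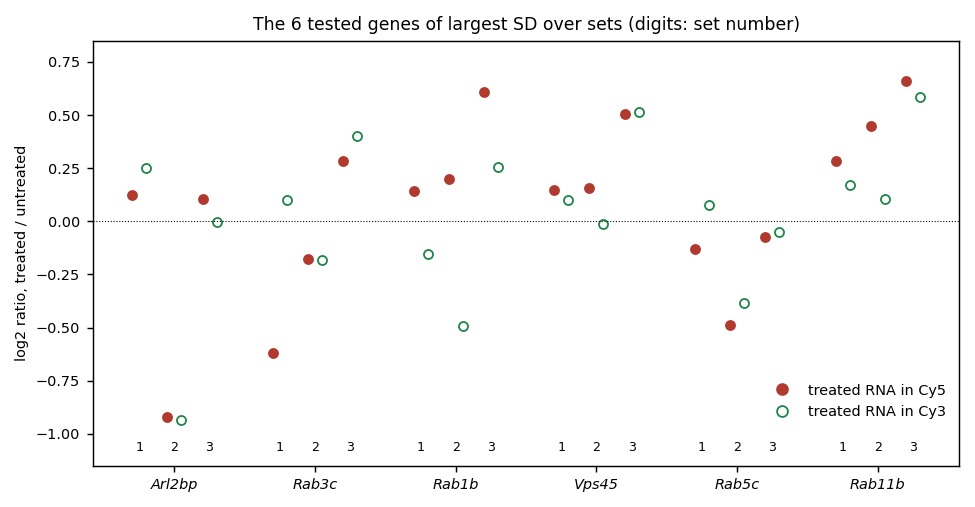
Log2 ratio of treated over untreated RNA (y axis) on each array for the 6 tested genes with the largest SD over sets (x axis, digits give the set); filled points are forward arrays (treated RNA in Cy5) and open points swapped arrays (treated RNA in Cy3). Both arrays of set 2 are near -0.93 for Arl2bp, and both arrays of set 3 are the highest of their orientation for Rab3c, Rab1b, Vps45 and Rab11b.

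Of the 16 tested sorting nexins, 2 rose and 2 fell. Snx16, which acts in the traffic of cargo at late endosomes, gave 0.38, 0.09 and 0.26 on the forward arrays and 0.67, 0.47 and 0.46 on the swapped arrays. All arrays were above 0, with the swapped arrays higher and no overlap. Snx16 rose by 0.39 ± 0.13 (adjusted p = 0.00791), the largest rise after that of Rab20 among the tested members. It did not pass on the forward arrays alone (0.24, adjusted p = 0.0882) or without set 1 (0.32, adjusted p = 0.0512). Snx10, which binds the proton pump of lysosomes and is needed by osteoclasts to resorb bone, gave 0.08, 0.12 and 0.05 on the forward arrays and 0.23, 0.35 and 0.24 on the swapped arrays. It rose by 0.18 ± 0.05 (adjusted p = 0.044), and did not pass on the forward arrays alone (0.09) or the swapped arrays alone (0.27).

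Snx2, a membrane-bending partner of retromer, gave -0.27, -0.21 and -0.29 on the forward arrays and -0.15, -0.15 and -0.10 on the swapped arrays. It fell by 0.19 ± 0.02 (adjusted p = 0.0259), with the forward arrays lower and no overlap. Its partner Snx1 averaged 0.02 ± 0.02 (adjusted p = 0.805), with orientation means of -0.05 (forward) and 0.08 (swapped). The SDs over set averages do not show these differences between orientations. Snx24 gave -0.17, -0.38 and -0.20 on the forward arrays and -0.10, -0.19 and -0.21 on the swapped arrays, and fell by 0.21 ± 0.07 (adjusted p = 0.0344). Snx10, Snx2 and Snx24 did not pass with any set left out, at 0.15 to 0.19, -0.20 to -0.19 and -0.25 to -0.17. Snx24 did not pass on either orientation alone, nor Snx2 on the swapped arrays alone (-0.14). The other 12 sorting nexins averaged between -0.17 (Snx27, adjusted p = 0.0922) and 0.02. Snx20, which in leukocytes binds the selectin ligand PSGL-1, was at -0.01 ± 0.06.

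Of the 16 tested Vps genes only Vps37a passed the test. Vps37a encodes a subunit of ESCRT-I, the complex that sorts ubiquitinated cargo into multivesicular bodies, and gave 0.13, 0.13 and 0.17 on the forward arrays and 0.25, 0.43 and 0.20 on the swapped arrays. It rose by 0.22 ± 0.05 (adjusted p = 0.0231), with probes at 0.25 (adjusted p = 0.0154) and 0.19 (adjusted p = 0.0985). It did not pass on the forward arrays alone (0.14), on the swapped arrays alone (0.29), without set 1 (0.23) or without set 2 (0.19). The other ESCRT genes were at -0.05 ± 0.03 for Vps28, -0.14 ± 0.05 for Vps25 (adjusted p = 0.0783) and -0.07 ± 0.09 for Vps4b. Vps25, of ESCRT-II, was near 0 on the forward arrays, at 0.11, -0.04 and 0.02, and low on the swapped arrays, at -0.29, -0.32 and -0.35.

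The retromer core genes Vps35 (-0.09 ± 0.03, adjusted p = 0.209) and Vps29 (0.00 ± 0.01, adjusted p = 0.957) did not pass, nor did Vps26c (-0.15 ± 0.10, adjusted p = 0.129) and Vps35l (-0.09 ± 0.13), subunits of the related retriever complex. Single arrays of Vps29 ran from -0.26 to 0.27, a spread that its SD over set averages does not show. The HOPS and CORVET tether genes Vps11, Vps16 and Vps33a averaged between -0.02 and 0.07. Those of the GARP tether, Vps51 and Vps53, averaged -0.04 ± 0.10 and 0.03 ± 0.08. Vps45, which pairs with an endosomal syntaxin in membrane fusion, had the highest mean of the Vps genes, 0.24 ± 0.24, and did not pass (adjusted p = 0.154). Its value came from 1 of its 2 probes, which gave 1.00 on both arrays of set 3 and averaged 0.45 ± 0.48, while the other averaged 0.02 ± 0.02. Vps50, of the EARP tether, was at 0.07 ± 0.06. Vps72, a subunit of chromatin remodellers and not of the traffic machinery despite its name, was at 0.11 ± 0.14.

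The direction of a ratio against the dyes was examined for every gene. A dye effect, that is a difference between orientations, was called for 0 of 80 members, against 0.06% of all genes tested (limma on unturned ratios, adjusted p below 0.05). An unadjusted p under 0.05 was found for 23 of 80 members, against 2313 of 8331 genes, so few calls do not show that orientation had no effect. Over all genes tested, turned ratios correlated at r = 0.14 to 0.67 between arrays of different orientation, against 0.58 to 0.80 within an orientation. For 10 members (12.5%) all arrays of one orientation had the opposite sign to all arrays of the other, against 13.7% of all genes tested. Snx31 was the widest of these, at -0.26, -0.41 and -0.24 on the forward arrays and 0.12, 0.68 and 0.05 on the swapped arrays. Its mean was -0.01 ± 0.12, against orientation means of -0.30 (forward) and 0.29 (swapped). Rab8a, Rab9, Snx1, Snx7, Snx9, Snx29, Vps29, Vps33a and Rab5if were the other members of this kind.

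**Figure D4:**
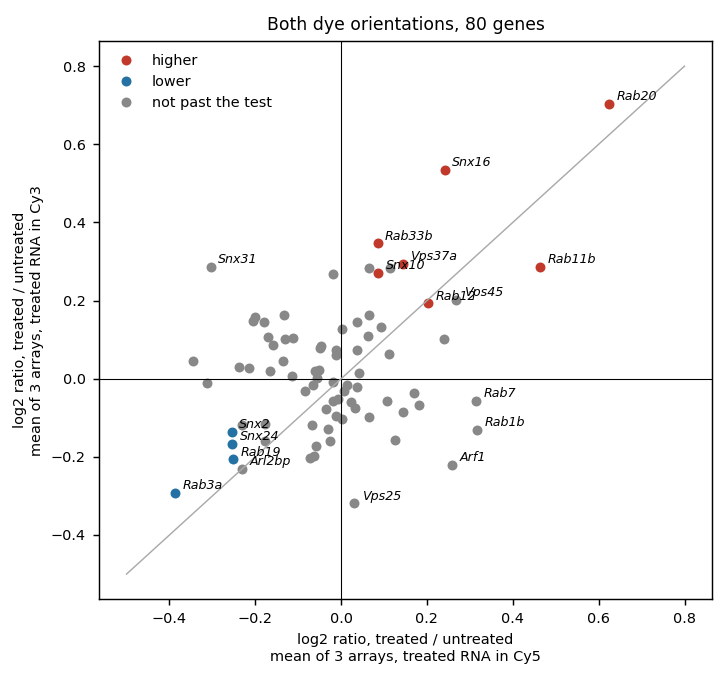
Mean log2 ratio of treated over untreated RNA over the 3 forward arrays (treated RNA in Cy5, x axis) and over the 3 swapped arrays (treated RNA in Cy3, y axis) for the 80 tested genes; the grey line marks equal values. Rab20 lies near the line at 0.63 and 0.70, Rab3a at -0.39 and -0.29, whereas Snx31 lies in the quadrant of opposite signs at -0.30 and 0.29.

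For 14 members no probe had a ratio on all arrays, and they were not tested. These were Rab13, Rab27b, Rab30, Rab36, Rab37, Rab38, Rab3b, Rab11fip1, Arl1, Arl14ep, Snx5, Snx21, Vps4a and Vps13b. Rab30 gave 0.26 and 0.14 on the forward arrays and 0.24 and 0.66 on the swapped arrays, all above 0 on its 4 measured arrays. Snx21 gave -0.25, -0.20 and -0.35 on the forward arrays and -0.32 and -0.02 on the swapped arrays, all below 0. Vps4a, an ATPase that disassembles ESCRT-III, averaged -0.14 over 5 arrays, and the other 11 averaged between -0.13 and 0.38 over 1 to 5 arrays. Of the 22 member probes with ratios on some arrays only, those of Arf6, Rab24, Snx1, Snx3 and Vps29 held 8 values above 1.5 in size, reaching 2.72. All 8 were negative as deposited, that is with more signal in Cy3, whichever RNA that dye carried. Snx3, for instance, was deposited at -2.66 on a forward array and at -2.72 and -2.27 on swapped arrays. Among such probes of all genes 359 of 380 values of that size (94.5%) were negative as deposited. Complete probes of the same genes averaged 0.11 for Arf6, -0.08 for Rab24, 0.02 for Snx1, 0.02 for Snx3 and 0.00 for Vps29, and complete probes of all members held 0 values of that size.

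Genes that load, switch and use these GTPases, or work beside them, are given in 5 lists, to be read against the 6.96% of all genes tested that rose and the 6.21% that fell. Unlike the calls of members, those of list genes were not followed through the alternatives to the processing. In the list of exchange factors and GTPase-activating proteins of Rab proteins, 2 of 21 tested genes rose and 2 fell. Rabgef1, an exchange factor for Rab5, rose by 0.61 ± 0.05 (adjusted p = 0.00043), at 0.49, 0.39 and 0.61 on the forward arrays and 0.65, 0.77 and 0.72 on the swapped arrays. Rin2, another Rab5 exchange factor, fell by 0.61 ± 0.03 (adjusted p = 0.000329), at -0.63, -0.56 and -0.71 on the forward arrays and -0.56, -0.61 and -0.58 on the swapped arrays. Every array was above 0 for Rabgef1 and below 0 for Rin2. Tbc1d1 rose by 0.21 ± 0.04, and Madd, an exchange factor for Rab3, fell by 0.22 ± 0.07.

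For Arf proteins 1 of 13 exchange factors and GTPase-activating proteins rose and 1 fell. Cyth2, an Arf exchange factor of the cytohesin family, rose by 0.31 ± 0.03 (adjusted p = 0.00451), and Agfg2, whose protein has an ArfGAP domain, fell by 0.95 ± 0.24 (adjusted p = 0.00132), at -1.31 to -0.71 over the arrays. Among ESCRT and retromer partners outside the Vps and Snx names, 2 of 20 rose and 1 fell. Ehd1, an ATPase of recycling endosomes, rose by 1.45 ± 0.21 (2.73-fold, adjusted p = 0.000146), at 1.33, 1.40 and 1.65 on the forward arrays and 1.29, 1.29 and 1.73 on the swapped arrays. Its relative Ehd3 fell by 0.46 ± 0.08, at -0.46, -1.07 and -0.53 on the forward arrays and -0.40, -0.02 and -0.26 on the swapped arrays. The arrays of set 2, at -1.07 and -0.02, were the farthest apart for Ehd3, and the SD over set averages does not show this. The ESCRT-III regulator Ist1 rose by 0.22 ± 0.07.

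Of 8 tested genes of prenylation and extraction, which attach the lipid anchor and recycle Rab proteins, 3 rose and 0 fell, and no list was tested as a group. They were Chm (0.19 ± 0.01) and Chml (0.21 ± 0.09), the escort proteins that present new Rab proteins for prenylation, and Rabggtb (0.18 ± 0.06, adjusted p = 0.0439), a subunit of the transferase itself. Rabggtb was near 0 on the forward arrays, at 0.00 to 0.03, and at 0.23 to 0.49 on the swapped arrays. Chm was at 0.11 to 0.13 on the forward arrays and 0.23 to 0.30 on the swapped arrays, a gap that its SD over set averages does not show. Among effectors of Rab and Arf proteins 2 of 23 rose and 1 fell. The lipid kinase genes Pip5k1a (0.31 ± 0.14) and Pip5k1b (0.23 ± 0.06) rose, and Rilpl2 fell by 0.19 ± 0.02. The medians of the 5 lists lay between 0.00 and 0.03, against -0.01 over all genes tested.

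**Figure D5:**
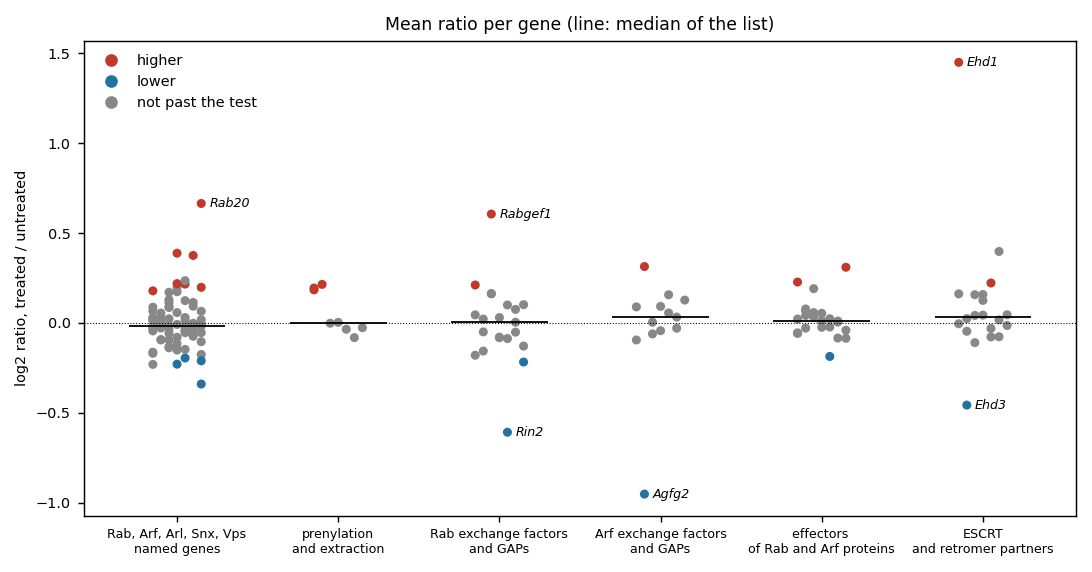
Mean log2 ratio of treated over untreated RNA (y axis) of each tested gene in the Rab, Arf, Arl, Snx and Vps named set and in 5 lists of regulators and partners (x axis); each point is a gene and the line the median of its list. Ehd1 at 1.45 and Agfg2 at -0.95 lie farther from 0 than Rab20 at 0.66, and Rabgef1 and Rin2 lie at 0.61 and -0.61.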

How the data were processed

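The deposited values are log2 ratios of both channels of each array, per the labels' dyes and the values themselves: between 99.97% and 99.99% of the non-zero values of an array are numbers of 6 digits on the log10 scale divided by log10 of 2 (relative tolerance 1e-12). Scanner, background correction and normalization are not given in the sources used here, and array medians lay between 0.0043 and 0.0159 as deposited. Of the 200 complete probes of largest mean size, 169 had opposite signs in the 2 orientations, so the values of each array on which Cy3 marked treated RNA were turned (factor -1). Exact zeros were taken as missing. Of 16281 probes, 13738 had 1 gene symbol, 52 several and 2491 none. The 9968 complete probes with 1 symbol were averaged to 8331 genes, of which 1493 had several probes. A RefSeq table of GRCm38.p6 matched 13694 probes and changed 0 symbols.

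Both arrays of a set were averaged and the 3 averages tested against 0 with limma 3.58.1 in R 4.3.3 (lmFit and eBayes, two-sided, 2 residual and 4.08 prior degrees of freedom, Benjamini-Hochberg adjustment over all genes, threshold 0.05). The procedure was also run on simulated data with independent noise on every array, which cannot show whether the sets are separate replicates. Same-numbered arrays correlated at -0.01, -0.28 and -0.09 over all 8331 genes after orientation means were removed. Over the 80 members the same r was 0.46, 0.24 and 0.52, and 0.34, -0.06 and 0.50 without Arl2bp. Over all genes, then, the numbers were not shown to mark shared samples. The averages still join arrays by number, to balance the dyes, and the SDs over sets rest on that: averaging arrays that deviate in opposite ways makes them smaller. A fit of the 6 arrays without it is among the alternatives. The named members are all called ones, 18 fixed by name on the array (10 others fixed by name were not on it), the 2 of largest ratio in each role group and those with an incomplete probe averaging over 0.5 in size; others in the text were chosen after their values were seen. The members and lists were chosen with earlier results of these data known. Alternatives were zeros kept, incomplete probes, 6 separate arrays, other scaling, each orientation alone, medians over probes, a robust prior and each set left out.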

Additional observations from a re-analysis of the deposited data

How the results depend on the processing

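These results rest on 6 arrays, and most calls are small ratios near the threshold. Counts of members past the test that moved most were as follows, set against 7 higher, 4 lower and 11 in all (13.8% of 80 members, against 13.2% of all genes). With zeros kept as ratios, 1 was higher and 1 lower, 2 in all of 94 members then tested (2.13%). Of 10698 genes then tested, 522 were called (4.88%), against 1097 of 8331, with 0 dye effects against 5. With 6 separate arrays, a dye term and no replicate block, 9 were higher and 8 lower, 17 in all. That was 21.25% of members, against 17.3% of all genes (1439). With the set number as a replicate block 9 were higher and 5 lower, 14 in all, or 17.5% of members against 16.1% of all genes (1340). Treated RNA in Cy5 alone gave 4 higher, 7 in all, or 8.75% of members against 12.4% of all genes (1035). Treated RNA in Cy3 alone gave 3 higher and 1 lower, 4 in all, or 5% of members against 7.79% of all genes (649). Leaving out a set gave 1 to 5 higher, 0 to 3 lower, 1 to 6 in all (1.25% to 7.5% of members) and 499 to 832 genes (5.99% to 9.99%). The lowest values were without set 1, where Rab20 alone passed. A fit without a set has fewer residual degrees of freedom, and what moved the counts was not tested. Quantile normalization ended the calls of Rab11b (adjusted p = 0.0614) and Rab33b (0.0515), and including incomplete probes those of Rab3a (0.119) and Snx10 (0.0546). The other alternatives gave 9 to 11 members, and the test of each probe alone, added after seeing the data, gave 11. The members' median stayed between -0.02 and 0.01. No called member changed sign. Of the 403 values of the 31 named members without a call, 9 gained one, and 30 changed sign without a call.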
